A study of Mus musculus with 16 samples.

Results

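The genes described are 35 genes whose products work in the nucleolus, chosen by name as a group of ribosome biogenesis and RNA polymerase I (Pol I) genes. They are 35 of 16971 genes tested, and all 35 passed the filter on low counts, with 658 to 42219 estimated counts per library. The data are 16 polyA RNA-seq libraries of mouse neural progenitor cells grown from E18.5 cortex. A control lentivirus with Cas9 and no guide gave the cultures labelled WT, and a lentivirus with Cas9 and a guide against Chd1 gave those labelled KO. All cultures went through puromycin selection as pools, with no clone named. There were 4 libraries in each of 4 groups: WT with DMSO, KO with DMSO, KO with 10 nM dihydrotestosterone (DHT, an androgen) for 24 h, and KO given the same DHT 30 min after 10 µM enzalutamide (ENZ), which blocks the androgen receptor. No WT culture received DHT and no culture received ENZ alone, so DHT and ENZ were seen in KO cells only, and ENZ only on top of DHT. The cells came from embryos of 2 litters, and which replicate came from which litter is not given in the sources used here. P-values therefore measure the spread between these cultures.

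Ribosomal RNA is transcribed by Pol I in the nucleolus, where small nucleolar ribonucleoproteins (snoRNPs) modify and fold it and assembly factors join it to ribosomal proteins. Growing progenitors make many ribosomes, and many of these genes are known targets of the MYC transcription factors. CHD1, a chromatin remodeller of transcribed genes, is known to support ribosomal RNA output. PolyA libraries measure the messenger RNAs of these factors and not ribosomal RNA itself.

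The shallowest library, replicate 1 of WT DMSO, had 20.2 M estimated counts, and the rest had 31.8 to 36.9 M. Chd1 was at 59.9 to 77.0 CPM (estimated counts scaled to library size) over all libraries and was not called in any comparison, which does not check the knockout, since a cut guide site need not lower the RNA. Progenitor markers were high, such as Nes at 2182 to 2911 CPM and Sox2 at 168 to 247 CPM, although Hes5 stayed at or below 1.15 CPM. Olig1 and Olig2 were also high, at 942 to 1559 and 645 to 1003 CPM. Markers of other cell types were mixed. Of 8 neuron markers, Map2 was at 787 to 1313 CPM and Tubb3 at 33.6 to 50.5, and the others, Dcx among them, were at most 4.58 CPM. Of 4 astrocyte markers, Aldh1l1 was at 50.8 to 236 CPM and S100b at 6.18 to 16.4, while Gfap was at most 2.14 and Aqp4 at most 0.786. Microglia markers were at most 4.06 CPM, with C1qa at 0, and red blood cell markers at most 0.559, with Hbb-bs at 0. The part of these markers in the results was not tested. In such bulk samples, fewer cells of a type and less RNA per cell cannot be told apart.

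Levels were compared between genes per length, as TPM (abundance scaled by transcript length and library total) averaged over the 16 libraries. A pair of nucleolar scaffold genes was at the top of the range. Npm1, encoding nucleophosmin of the outer nucleolar layer, was at 964 TPM and Ncl, encoding nucleolin, at 406 TPM, whereas the scaffold genes Nolc1 and Ddx21 were at 91.6 and 73.4 TPM. Next came 4 of the 8 snoRNP genes, with the ribose methyltransferase gene Fbl at 241 TPM, the box H/ACA protein gene Nhp2 at 222, and Nop56 and Nop58, encoding the box C/D scaffold pair, at 204 and 150. The other snoRNP genes, Gar1, Nop10, Dkc1 and Rrp9, were at 88.6, 64.9, 55.9 and 45.5 TPM. The highest Pol I gene was Ubtf, whose product binds ribosomal DNA, at 120 TPM. The catalytic Pol I subunit genes were far lower, with Polr1a at 20.9 and Polr1b at 14.0 TPM, while Polr1c, shared with RNA polymerase III, was at 66.3. The lowest members were Utp20, a scaffold of the small-subunit processome, at 13.9 TPM and Rrp12, an export factor of pre-ribosomes, at 11.1 TPM. Npm1 and Ncl stood apart from the next gene by more than the spread over the 16 libraries (SDs of 48.0 and 22.8 TPM), whereas Fbl, Nhp2 and Nop56 followed each other by less than the SD of Nhp2, 26.6 TPM. Assembly factors not named elsewhere, Nop16 of the large subunit and Tsr1 and Nop14 of the small subunit, were at 55.6, 45.2 and 39.2 TPM, and none was called in any comparison.

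**Figure D1:**
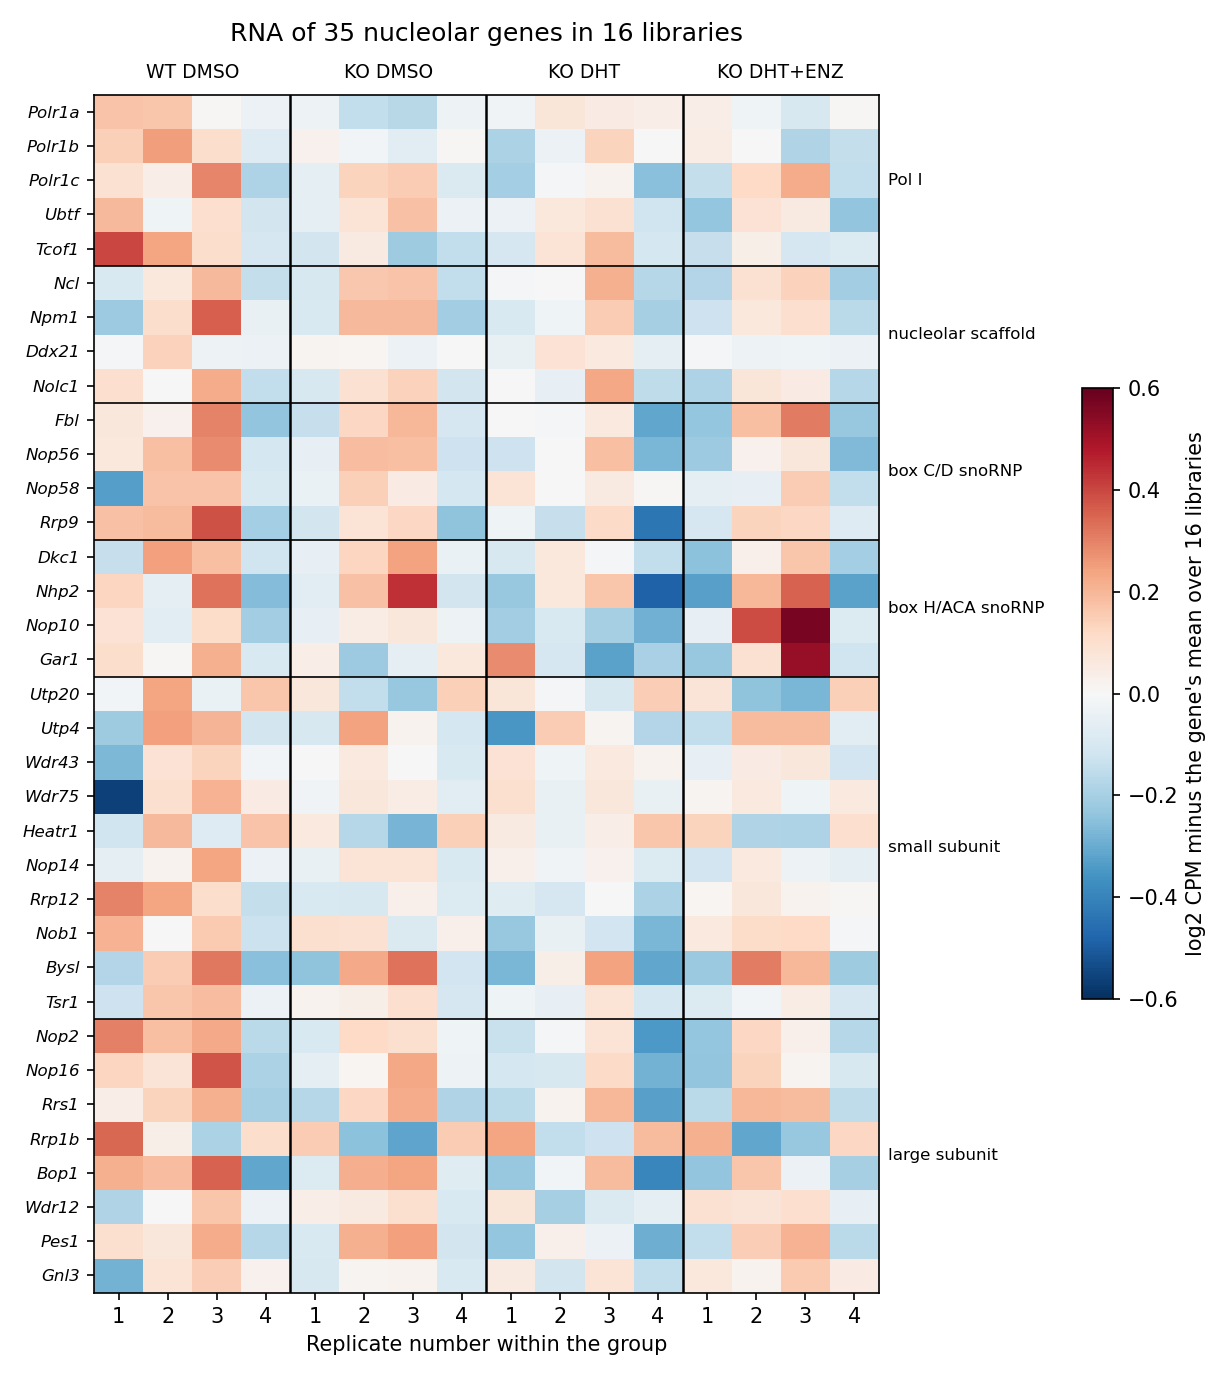
Level of each of the 35 nucleolar genes (rows, ordered by role) in each of the 16 libraries (columns, 4 groups of 4 replicates), as log2 CPM minus the gene's own mean over the libraries. Replicate 3 lies above replicate 4 in the median over the genes in all 4 groups, at 0.19 against -0.11 in WT DMSO, and Nop10 is highest in KO DHT+ENZ replicates 2 and 3.

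Setting vehicle-treated KO cultures against vehicle-treated WT cultures addresses whether the Chd1 guide went with a difference in these genes without added androgen. No nucleolar gene was called, which does not show that none changed. In edgeR's quasi-likelihood test 0 of 35 passed at an adjusted p under 0.05, beside 0% of all genes tested, with or without the replicate number as a block. At an unadjusted p under 0.05, 3 of 35 members were lower in edgeR (2.13% of all genes) and 0 higher (0.86%). With the block 4 of 35 were lower, beside 4.56% of all genes (3.27% higher). No member's groups were without overlap, as 0.613% of all genes were with KO higher and 0.465% with KO lower. Read by replicate number, 2 of 35 members were lower in 4 of 4 pairs, beside 6.57% of all genes, and 0 were higher, beside 6.24%. DESeq2 and limma-voom, with or without the block as listed in the methods, called 0 members too. The median log2 fold change of the 35 was -0.04, beside -0.00 for all genes, with 25 members below 0 (50.4% of all genes) and 10 above (49.6%), and the range was -0.27 to 0.08. Standard errors ran from 0.07 (Ddx21) to 0.18 (Nhp2).

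The Pol I genes among the members had the lowest median of the 6 roles in that comparison, -0.12, with all 5 below 0. A further list of 8 other Pol I genes did not share this, with a median of 0.02, 5 above 0 and 3 below. Tcof1 had the lowest value of the 35 members. Tcof1 encodes treacle, a nucleolar protein that supports ribosomal RNA transcription. It was at 69.3, 61.9, 56.5 and 49.1 CPM in WT DMSO replicates 1 to 4 and at 48.7, 54.5, 45.4 and 47.4 CPM in KO DMSO. The KO library was the lower one in 4 of 4 pairs, but the groups overlapped, because WT replicate 4 lay among the KO libraries. The log2 fold change was -0.27 (SE 0.10), which did not pass (adjusted p = 1 in edgeR and 0.536 with the block). Polr1a, encoding the largest catalytic subunit, was at 89.7, 89.4, 80.2 and 77.9 CPM in WT DMSO and at 78.1, 71.9, 71.2 and 78.1 CPM in KO DMSO. Again only WT replicate 4 reached the KO range, and the log2 fold change of -0.17 (SE 0.07) did not pass (adjusted p = 1 in edgeR, 0.567 with the block). Polr1b was at -0.12, Polr1c at -0.03 and Ubtf at -0.00 on the same log2 scale. Ubtf was at 311, 267, 292 and 252 CPM in WT DMSO and at 261, 288, 307 and 265 CPM in KO DMSO, with the groups overlapping throughout.

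The other roles lay nearer to 0. Median log2 fold changes were -0.03 for the 4 scaffold genes, -0.04 for the 4 box C/D genes, 0.02 for the 4 box H/ACA genes, -0.03 for the 10 small-subunit genes and -0.05 for the 8 large-subunit genes. Rrp12 (-0.19, SE 0.09) had the third unadjusted p under 0.05. Rrp9, which binds a box C/D snoRNA of the processome, was at -0.18 (SE 0.13) and lower in 4 of 4 pairs. Neither passed (adjusted p = 1 in edgeR for both, 0.587 and 0.622 with the block). WT DMSO replicate 1, the shallow library, was highest of all 16 for Tcof1, Polr1a and Rrp12 and lowest of all 16 for Wdr75, Wdr43 and Gnl3. The members' median was -0.06 without it, and with any 1 library left out it lay between -0.07 (without WT DMSO replicate 4) and 0.02 (without WT DMSO replicate 3), so its sign was not stable.

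**Figure D2:**
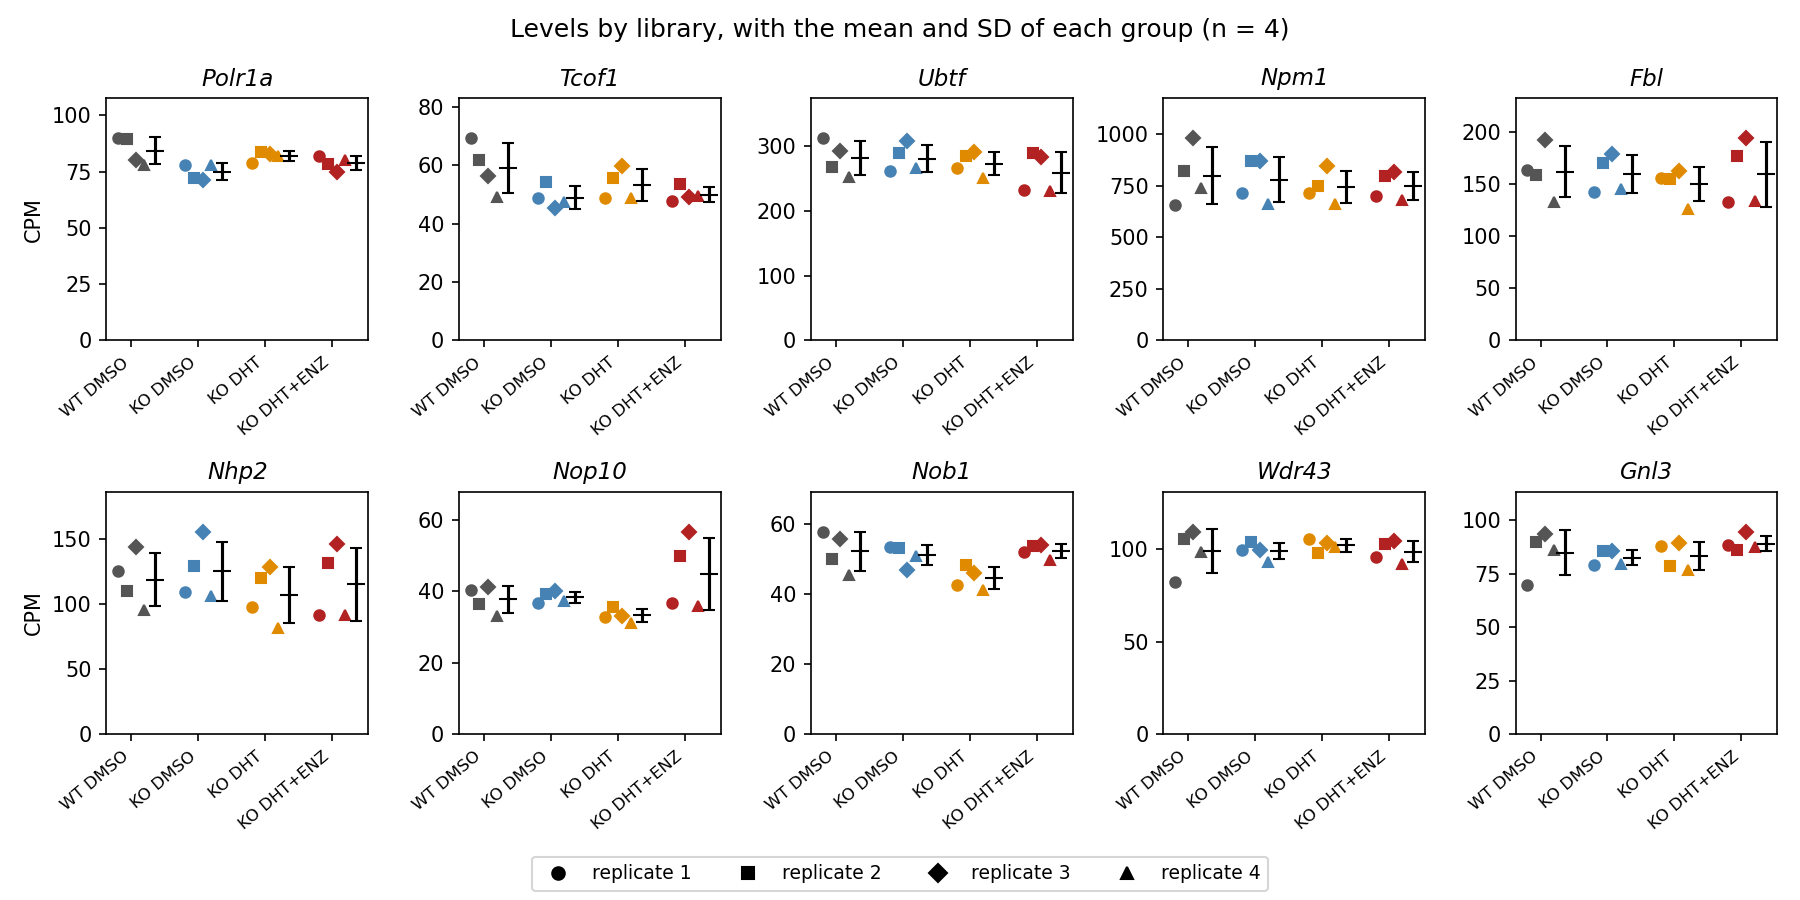
CPM of the 10 nucleolar genes given library by library, by group, with symbols for the replicate number and the black mark and bar for the group mean and SD (n = 4). The KO DHT+ENZ libraries of Nop10 and Nob1 lie above all KO DHT libraries, while the groups overlap for Ubtf, Npm1, Fbl, Nhp2 and Wdr43.

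Androgen was tested in KO cells by setting DHT against vehicle. No nucleolar gene was called here either. Of 35 members 0 passed, beside 0% of all genes tested, with and without the block in edgeR, and 0 in DESeq2 and limma-voom. At an unadjusted p under 0.05, 1 of 35 members was lower in edgeR (0.542% of all genes) and 0 higher (0.595%). With the block 4 of 35 were lower (4.5% of all genes) and 0 higher (3.51%). The median log2 fold change was -0.04, beside -0.00 for all genes, with 24 members below 0 (50.6% of all genes) and 11 above (49.4%). The sign of that median turned on the TPM scale, to 0.02 with 19 members above 0 and 16 below, where the median of all genes was 0.06. With 1 library left out the CPM-based median lay between -0.085 (without KO DHT replicate 3) and -0.0046 (without KO DHT replicate 4). With the pairs read by replicate number, 13 of 35 members were lower in 4 of 4 pairs, beside 2246 of 16971 genes (13.2%). In 4 of 4 pairs 4 of 35 were higher, beside 11.3%. The share lower was thus larger among the members than among all genes, which was not tested. It was not particular to the members. Of 79 ribosomal protein genes, 28 were lower in 4 of 4 pairs and 0 higher. Of 136 genes in 5 further lists of ribosome biogenesis, 33 were lower and 7 higher. All these genes were read from the same pairs and are not independent.

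The box H/ACA genes had the lowest median of the roles, at -0.16, with all 4 below 0. This particle converts uridine to pseudouridine in ribosomal RNA and also belongs to telomerase. Nop10, its smallest core protein, was at 36.8, 39.3, 39.9 and 37.3 CPM in KO DMSO and at 32.9, 35.7, 33.2 and 31.2 CPM in KO DHT. All KO DHT libraries were lower than all KO DMSO libraries, which 0.825% of all genes also showed. The log2 fold change was -0.21 (SE 0.13; adjusted p = 1 in edgeR, 0.625 with the block). Nhp2, the RNA-binding partner, was at 110, 129, 155 and 106 CPM in KO DMSO and at 97.7, 120, 129 and 81.8 CPM in KO DHT. It was lower in 4 of 4 pairs with overlapping groups, at -0.23 (SE 0.18; adjusted p = 1, 0.606 with the block). The pseudouridine synthase gene Dkc1 was at -0.12 (SE 0.11) and Gar1 at -0.02 (SE 0.15). A shared sign was not particular to the box H/ACA genes. All 9 genes of a further list of snoRNP and assembly factors were below 0 (median -0.09). Of 79 ribosomal protein genes, 75 were below 0 (median -0.10).

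Nob1, the nuclease that makes the final cut of the small-subunit RNA, was at 53.3, 53.1, 47.0 and 51.0 CPM in KO DMSO and at 42.6, 48.3, 46.0 and 41.3 CPM in KO DHT. It was lower in 4 of 4 pairs, and the groups met only at KO DMSO replicate 3, which lay under KO DHT replicate 2. The log2 fold change was -0.20 (SE 0.09; adjusted p = 1, 0.606 with the block). Among the large-subunit genes, Pes1 was at -0.20 (SE 0.12) and its complex partners Bop1 and Wdr12 at -0.18 (SE 0.15) and -0.09 (SE 0.09). The Pol I genes did not share one sign. Polr1a was at 78.6, 83.8, 82.6 and 82.0 CPM in KO DHT, above every KO DMSO library, as 0.754% of all genes were. Its log2 fold change was 0.13 (SE 0.07; adjusted p = 1, 0.625 with the block), and Tcof1, at 49.0, 55.6, 59.8 and 48.8 CPM in KO DHT, was at 0.12 (SE 0.10) and higher in 4 of 4 pairs. Polr1c was at -0.14 (SE 0.12) and lower in 4 of 4 pairs.

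**Figure D3:**
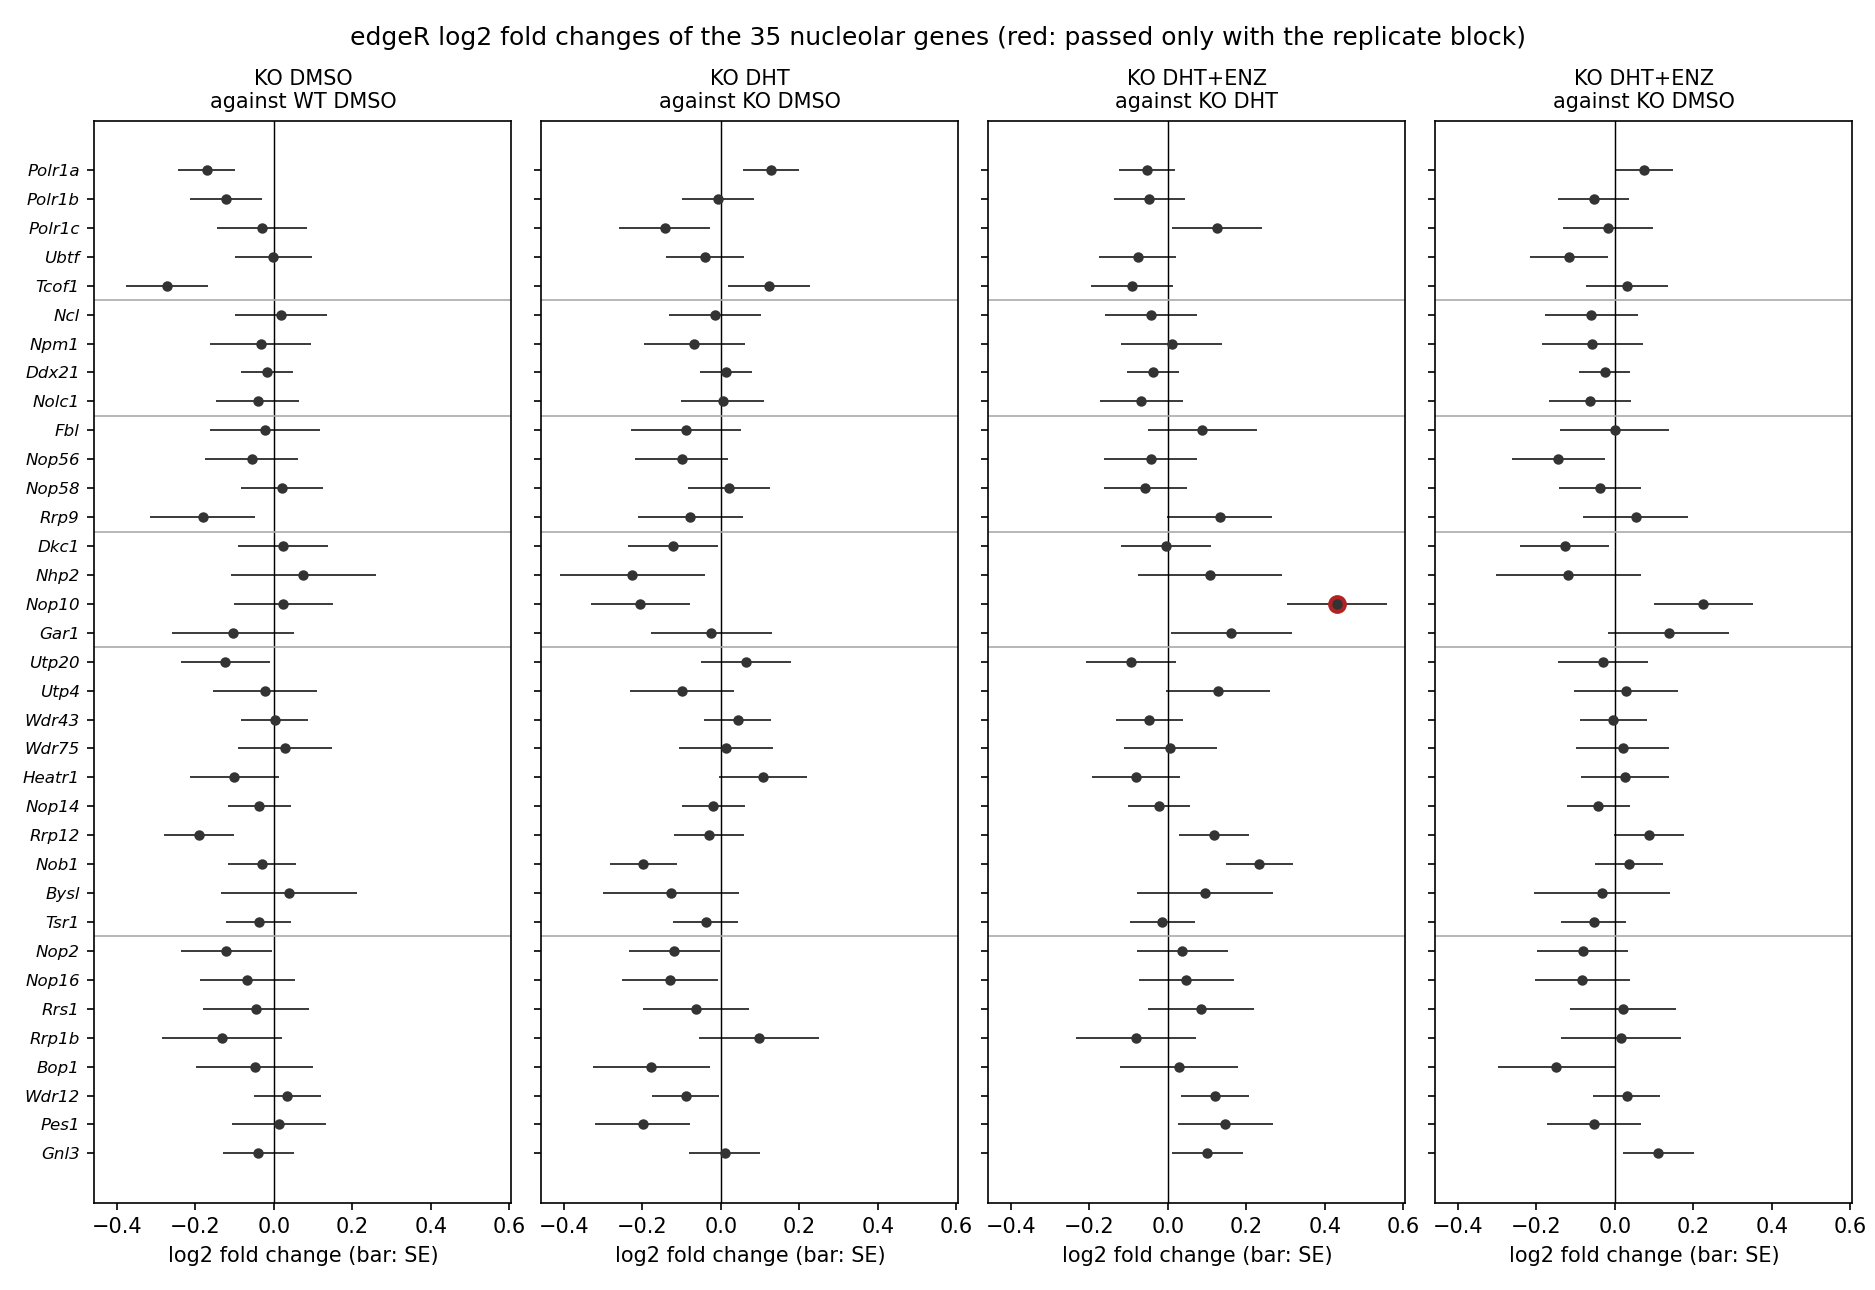
Log2 fold change of each nucleolar gene in the 4 comparisons from edgeR without the block (n = 4 per group), with bars for the standard error. Most bars reach 0, and the red point marks Nop10 at 0.43, the 1 call made with the replicate block.

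The antagonist was tested in androgen-treated KO cells by setting DHT+ENZ against DHT alone. Without the block 0 of 35 members passed, beside 0.265% of all genes (0.0766% higher and 0.189% lower). At an unadjusted p under 0.05, 2 of 35 were higher (3.56% of all genes) and 0 lower (3.41%). With the block 4 of 35 were higher (8.46% of all genes) and 0 lower (7.23%). With the block Nop10 rose, 1 of 35, beside 3.48% of all genes (1.57% higher and 1.92% lower). The members called were 1 of 35, so no share above that background can be read from them. DESeq2 called 0 without the block and 2 with it (Nop10 and Nob1), and limma-voom with the block called 1 (Nop10). The members' median log2 fold change was 0.01, beside -0.00 for all genes, with 19 above 0 (49.3% of all genes) and 16 below (50.7%), and the range was -0.09 to 0.43.

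Nop10 was at 36.8, 50.0, 56.5 and 35.9 CPM in KO DHT+ENZ, above the 31.2 to 35.7 CPM of KO DHT in every library, as 3.08% of all genes were (2.97% were lower without overlap). Replicates 2 and 3 were the highest of all 16 libraries, and replicates 1 and 4 lay within the 32.9 to 41.1 CPM of WT DMSO. The group means were 44.8 ± 10.1 and 33.3 ± 1.84 CPM (SD, n = 4 each). The log2 fold change was 0.43 (SE 0.13; adjusted p = 0.268, edgeR) and 0.41 with the block (SE 0.10; adjusted p = 0.0324), higher in 4 of 4 pairs. That block rests on a pairing read from the data, since the labels do not state one. The call rested on the pairs kept: the adjusted p with the block was 0.00555 without pair 1, and 0.214, 0.277 and 0.12 without pair 2, 3 or 4. It was 0.0518 once each library was also corrected for its trend on transcript length, with a log2 fold change of 0.33. The 2 comparisons of KO DHT share its 4 libraries, so the values of Nop10 in them, -0.21 and 0.43, are not independent.

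Nob1 was at 51.9, 53.7, 54.1 and 49.7 CPM in KO DHT+ENZ, above every KO DHT library, and close to the 47.0 to 53.3 CPM of KO DMSO. Its log2 fold change of 0.23 (SE 0.09) did not pass (adjusted p = 0.484 in edgeR, 0.107 with the block), whereas DESeq2 with the block gave 0.0352. Rrp12 was the third member whose groups did not overlap, at 33.5 to 34.9 CPM in KO DHT+ENZ and 29.2 to 33.3 in KO DHT (0.12, SE 0.09; adjusted p = 0.997). Other members higher in 4 of 4 pairs were Polr1c, Utp4, a transcription-linked processome protein (both at 0.13), and the large-subunit factors Pes1 (0.15), Wdr12 (0.12) and Gnl3 (0.10), none of which passed. Gnl3, nucleostemin, is a nucleolar GTPase of stem cells. It was at 88.1, 78.6, 89.6 and 76.6 CPM in KO DHT and at 88.6, 86.1, 94.5 and 87.6 CPM in KO DHT+ENZ, with overlapping groups. In all, 8 of 35 members were higher in 4 of 4 pairs, beside 14% of all genes, and 1 was lower, beside 14.2%.

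The most abundant genes showed no such order on the CPM scale. Npm1 was at 717, 751, 848 and 665 CPM in KO DHT and at 701, 799, 819 and 683 CPM in KO DHT+ENZ. The log2 fold change was 0.01 (SE 0.13). Fbl was at 156, 155, 162 and 126 CPM in KO DHT and at 133, 177, 193 and 133 CPM in KO DHT+ENZ, so its spread widened and the log2 fold change was 0.09 (SE 0.14). Nhp2 had a like pattern, at 91.4, 131, 146 and 91.6 CPM in KO DHT+ENZ (0.11, SE 0.18). Wdr43, a processome protein linked to transcription, was at 106, 97.6, 103 and 101 CPM in KO DHT and at 95.9, 103, 104 and 91.6 CPM in KO DHT+ENZ (-0.05, SE 0.09). Ubtf was at 266, 284, 290 and 251 CPM and at 232, 288, 283 and 231 CPM in the same groups (-0.08, SE 0.10). None of these passed in edgeR, with or without the block.

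The promoters of Nop10, Nob1, Nhp2 and Polr1a are shown as examples among the 10 members given library by library. They were picked after their values were seen, and other members also kept one direction in 4 of 4 pairs with DHT. Each is the 250 bases before the start given by RefSeq (GRCm38.p6, the build of that table and not of the expression files), read 5′ to 3′ on the gene's strand. Capitals mark matches on either strand to 4 motifs. The GC box has the letters GGGCGG. The ETS motif has the letters CCGGAAG. The E-box, which MYC proteins bind, has the letters CACGTG. The CCAAT box has the letters of its name.
Nop10 (chr2:112261676-112261925, plus strand): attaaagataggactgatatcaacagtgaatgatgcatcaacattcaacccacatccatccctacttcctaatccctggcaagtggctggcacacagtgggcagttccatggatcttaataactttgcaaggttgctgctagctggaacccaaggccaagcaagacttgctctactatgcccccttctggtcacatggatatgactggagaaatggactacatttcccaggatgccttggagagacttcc
Nob1 (chr8:107425039-107425288, minus strand): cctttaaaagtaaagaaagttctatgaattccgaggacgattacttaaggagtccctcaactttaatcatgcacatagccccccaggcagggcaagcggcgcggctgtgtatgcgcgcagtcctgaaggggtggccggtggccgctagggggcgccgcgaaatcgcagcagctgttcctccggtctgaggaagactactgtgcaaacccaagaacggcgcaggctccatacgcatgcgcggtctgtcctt
Nhp2 (chr11:51619523-51619772, plus strand): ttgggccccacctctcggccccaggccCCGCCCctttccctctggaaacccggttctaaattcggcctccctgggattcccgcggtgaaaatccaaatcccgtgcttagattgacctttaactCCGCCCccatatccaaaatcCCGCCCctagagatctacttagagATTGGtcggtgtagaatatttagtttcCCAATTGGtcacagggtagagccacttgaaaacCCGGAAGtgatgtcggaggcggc
Polr1a (chr6:71908803-71909052, plus strand): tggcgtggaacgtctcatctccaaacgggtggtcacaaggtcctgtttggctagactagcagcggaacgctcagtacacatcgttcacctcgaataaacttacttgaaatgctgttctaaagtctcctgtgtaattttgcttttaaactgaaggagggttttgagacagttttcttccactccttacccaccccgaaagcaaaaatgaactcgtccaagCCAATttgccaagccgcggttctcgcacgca
The windows differ in these letters. Nhp2 holds 3 GC boxes, 1 ETS motif and 3 CCAAT boxes, of which a pair overlaps, Polr1a holds 1 CCAAT box, and Nop10 and Nob1 hold none of the 4 motifs. RefSeq windows were matched for 29 of the 35 members, with 37 starts. The GC box was in 59.5% of these windows, beside 32.7% of all 32851 windows, and the ETS motif in 18.9%, beside 6.91%. The CCAAT box was in 21.6%, beside 33.8% of all, and the E-box in 2.7% (Nop2 alone), beside 6.02%. The set of all windows was not limited to the genes tested here. These shares therefore do not set the members apart from other expressed genes. A match is a description of letters and not a site in use.

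The last comparison set KO cells under both agents against vehicle. No nucleolar gene passed in edgeR: 0 of 35, beside 0.253% of all genes (0.053% higher and 0.2% lower), and 0 with the block, beside 2.94% (0.854% higher and 2.09% lower). At an unadjusted p under 0.05 there were 0 members without the block (2.39% of all genes higher, 3.38% lower). With it 2 of 35 were lower (7.73% of all genes) and 0 higher (5.8%). DESeq2 with the block called 1 member, Nop56, lower (-0.14, adjusted p = 0.0434), and DESeq2 without the block and limma-voom called 0. Nop56 was at 177, 209, 208 and 168 CPM in KO DMSO and at 157, 187, 192 and 152 CPM in KO DHT+ENZ, lower in 4 of 4 pairs with overlapping groups. In edgeR its log2 fold change was -0.14 (SE 0.12; adjusted p = 1) and -0.15 with the block (SE 0.05; adjusted p = 0.178). The members' median was -0.03, beside 0.01 for all genes, with 21 below 0 (48.3% of all genes) and 14 above (51.7%). In 4 of 4 pairs, 7 of 35 members were lower, beside 15.6% of all genes, and 4 higher, beside 16%. Gnl3 was the only member whose groups did not overlap on the CPM scale, higher in KO DHT+ENZ (0.11, SE 0.09; adjusted p = 1), as 2.92% of all genes were (3.18% were lower).

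The deposited TPM scale, on which each library sums to the same total, put the ENZ groups lower. The median log2 ratio of group means of TPM for KO DHT+ENZ over KO DHT was -0.10 over all genes tested and -0.10 over the 35 members, so the members' median moved with that of all genes. On this scale Ubtf was at 127, 125, 124 and 124 TPM in KO DHT and at 109, 112, 108 and 109 TPM in KO DHT+ENZ, a log2 ratio of -0.19. Nop56 was at 205, 203, 221 and 197 TPM and at 178, 177, 184 and 171 TPM, a log2 ratio of -0.22. The 2 groups did not overlap for either gene. In all, 5 of 35 members (14.3%) were lower without overlap on this scale (Ubtf, Nop56, Npm1, Nolc1 and Tcof1), beside 6.05% of all genes. Nop10 (2.86% of the members) was higher without overlap (60.4, 60.3, 54.1 and 60.3 TPM against 66.9, 74.4, 81.9 and 65.2 TPM), beside 0.89%. Against KO DMSO, 6 of 35 members (17.1%) were lower without overlap (Ubtf, Nop56, Npm1, Nolc1, Bop1 and Nop2), beside 5.86% of all genes. The members' median log2 ratio was -0.07, beside -0.04 for all genes. Nolc1, a chaperone of snoRNPs, was at 83.9 to 87.0 TPM in KO DHT+ENZ and at 87.8 to 104 TPM in KO DHT. In the other 2 comparisons Nop10 alone was without overlap, lower with DHT than with vehicle (0.554% of all genes lower, 0.972% higher), and no member was between KO and WT (0.595% each way). For both agents against vehicle 0.831% of all genes were higher. TPM was read as a level and was not tested.

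**Figure D4:**
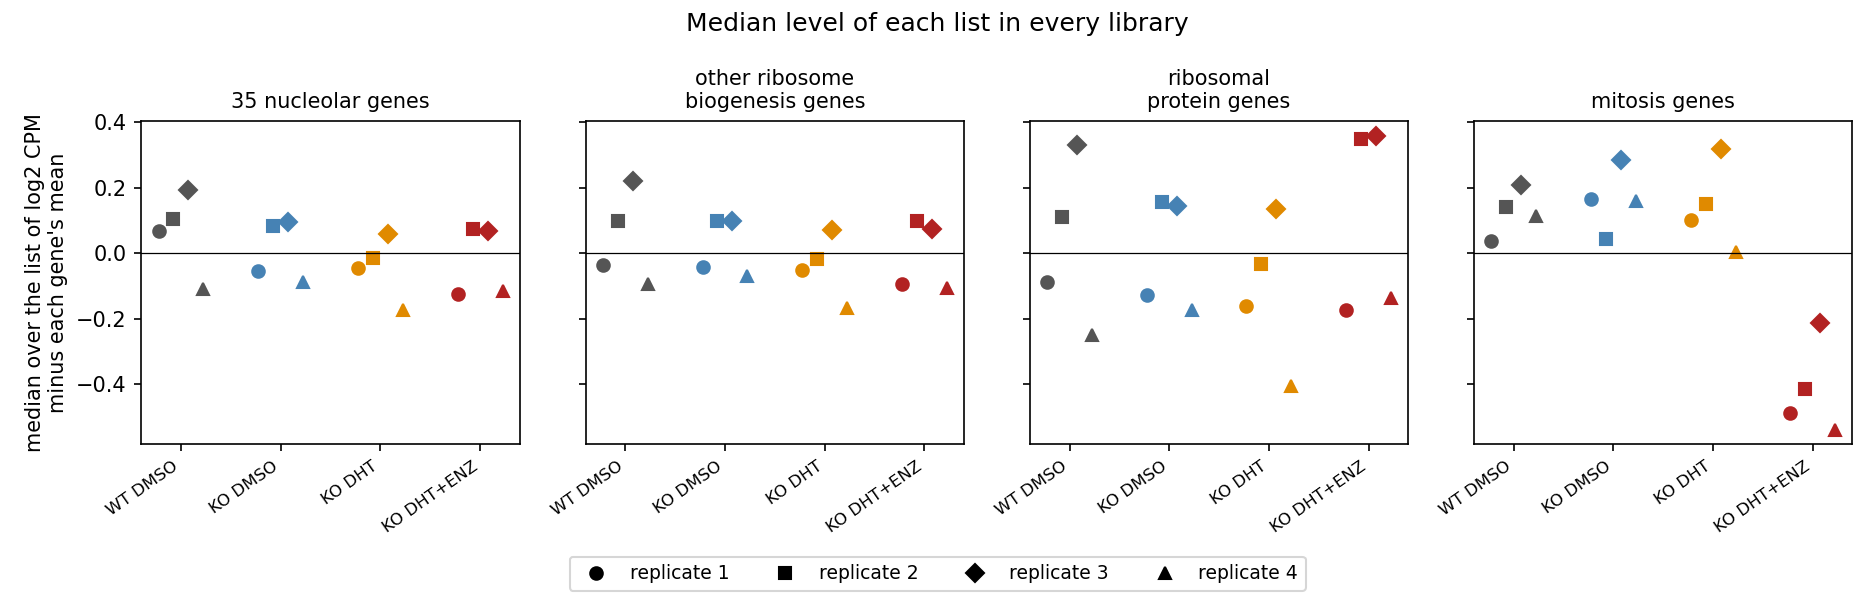
Median over each list of log2 CPM minus each gene's mean, in every library, by group and replicate number. For the nucleolar genes the replicate numbers part and the groups overlap, whereas the mitosis genes are below 0 in the 4 KO DHT+ENZ libraries alone.

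Levels of the nucleolar genes followed the replicate number more than the treatment. In the layout of 4 groups by 4 replicate numbers, the members' median share of variance in log2 CPM was 13.9% between groups and 54.7% between replicate numbers. Over 9747 genes that averaged 10 CPM or more the shares were 17.4% and 46.4%. The replicate share was larger in 29 of 35 members, beside 73.9% of those genes. It was highest for Bysl, a small-subunit assembly factor, at 91.5%, Ncl at 90.5% and Rrs1, a large-subunit assembly factor, at 87.6%. Bysl was at 51.2, 70.9, 76.0 and 55.9 CPM in KO DMSO, and replicates 2 and 3 were the highest in each of the 4 groups. The group share was larger for Polr1a, Polr1b, Tcof1, Nop10, Rrp12 and Nob1. Rrp1b, Utp20 and Heatr1 ran the other way in the KO groups: Rrp1b was at 51.6, 39.1, 37.2 and 51.4 CPM in KO DMSO, with replicates 1 and 4 high. What the numbers stand for beyond a label is not given in the sources used here.

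In the 2 comparisons with KO DHT, part of the difference moved with transcript length. Across the 35 members, which are not independent and share the same libraries, the rank correlation of log2 fold change with length was 0.53 for KO DHT against KO DMSO and -0.58 for KO DHT+ENZ against KO DHT. These 2 comparisons share the KO DHT libraries. The correlation was -0.03 for KO DHT+ENZ against KO DMSO, which does not compare those libraries, and -0.27 for KO DMSO against WT DMSO. The shorter members (under the median of 2392 bases) had a median log2 fold change of -0.09 with DHT, and the longer ones -0.02. With ENZ the medians were 0.09 and -0.04. Nop10 (1109 bases) and Nhp2 (1017 bases) were among the shortest, and Polr1a (5432 bases) among the longest. Over the 9747 genes the same correlation in the 4 pairs was 0.10, 0.66, 0.53 and 0.41 with DHT and 0.20, -0.59, -0.30 and -0.35 with ENZ. After the correction given for Nop10 above, 0 members passed in each of the 4 comparisons. Nop10 was the only member called with the edgeR block before it, so no other call could be lost. The part of this trend in the members' values was not tested further.

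**Figure D5:**
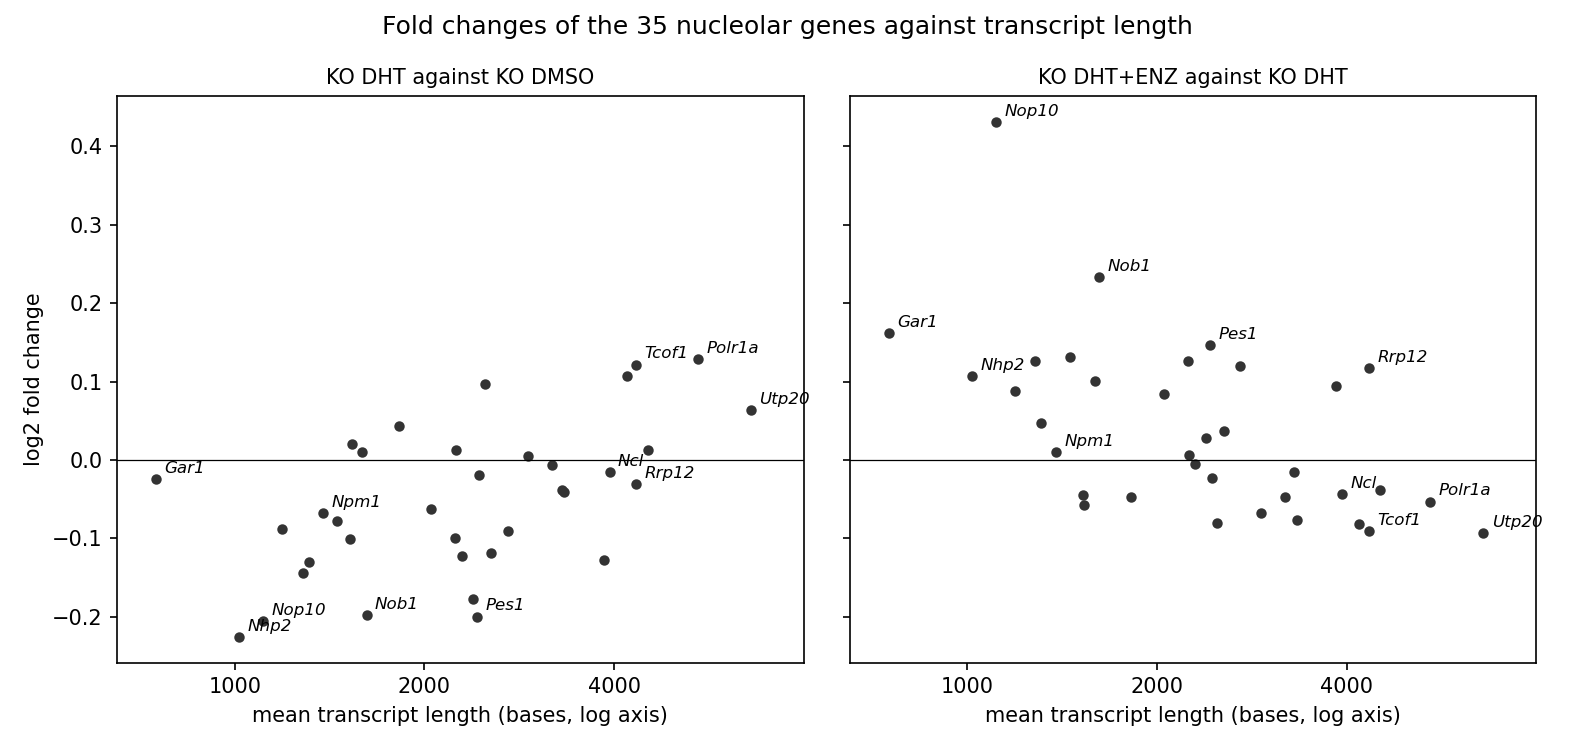
Log2 fold change (vertical axis) of the 35 nucleolar genes against mean transcript length in bases (horizontal log axis) for KO DHT against KO DMSO and KO DHT+ENZ against KO DHT. Short genes such as Nop10 and Nhp2 lie lower on the left panel and higher on the right, and long ones such as Polr1a the reverse.

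Several nucleolar genes drew many of their counts from transcripts annotated with a retained intron. For Ncl, which hosts snoRNAs in its introns, these transcripts held 51.7% ± 5.25 of the counts with WT DMSO. The KO cultures had 50.7% ± 2.28 with vehicle, 50.8% ± 2.93 with DHT and 51.3% ± 2.83 with both agents (SD over 4 libraries in each group). For Rrp1b, a factor that binds the large-subunit precursor, the means were 46.8%, 42.8%, 45.7% and 42.4% in the same order, with SDs of 9.28 to 14.9. For Polr1a, transcripts annotated for nonsense-mediated decay held 41.0%, 44.8%, 40.6% and 42.5%, with SDs of 5.58, 4.37, 2.67 and 2.97. For Ncl and Rrp1b the group means lay within the spread between replicates. For Polr1a the means of KO DMSO and KO DHT lay further apart than the SD of KO DHT, but not that of KO DMSO. Differences in these shares were not tested. The division of reads among transcripts of one gene is kallisto's estimate.

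Of 136 tested genes in 5 further lists (other Pol I genes, small-subunit and large-subunit factors, snoRNP assembly and the nuclear exosome), 0 passed in edgeR in any comparison, with or without the block. Their median log2 fold changes were -0.01, -0.07, 0.03 and -0.03 in the 4 comparisons in the order above. Of 21 RNA polymerase III genes and 11 snoRNA host RNAs 0 passed as well. Of all genes, 0%, 0%, 0.265% and 0.253% passed in the 4 comparisons, and 0%, 0%, 3.48% and 2.94% with the block. Where no gene passed at all, a count of 0 is not particular to these lists. Myc was at 80.8 to 104 CPM and Mycn at 0.465 to 2.29 CPM over all libraries, and neither was called in any comparison. Of 10 MYC network genes, Mxd3, a MAX partner that opposes MYC, fell in KO DHT+ENZ against KO DMSO with the block only (-0.51, SE 0.11, adjusted p = 0.0235; without the block -0.49, SE 0.18, adjusted p = 0.521). It was named after its values were seen.

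Mitosis and ribosomal protein genes were read beside the nucleolar genes. Of 20 mitosis genes, 9 fell in KO DHT+ENZ against KO DHT in edgeR, beside 0.189% of all genes. With the block 19 fell, beside 1.92%. The list's median log2 fold change was -0.56, beside 0.01 for the 35 nucleolar genes. The 8 with the smallest p were Kif14, Mki67, Top2a, Cenpe, Cenpf, Bub1b, Ttk and Kif11, at -0.57 to -0.75. Against KO DMSO 12 fell, beside 0.2% of all genes, and 19 with the block, beside 2.09%. The list's median was -0.59, beside -0.03 for the nucleolar genes. The list was led by Bub1b, Cenpa, Kif20a, Mki67, Top2a, Cenpf, Tpx2 and Cenpe. As a share of all counts, the mitosis genes were at 0.157% to 0.178% under both agents and at 0.223% to 0.280% in the other groups. The shares of the nucleolar genes were 0.441% to 0.485% and 0.448% to 0.526%. Of 79 ribosomal protein genes, 0 passed without the block in KO DHT+ENZ against KO DHT, beside 0.265% of all genes. With the block 10 rose, beside 1.57% of all genes. Their list's median was 0.23 there and -0.10 in KO DHT against KO DMSO, which shares the KO DHT libraries. The difference between these lists and the nucleolar genes was not tested.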

How the data were processed

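PolyA RNA of 16 cultures was measured. The authors used kallisto and GRCm39, per the submitters' processing notes. Per the file headers, the deposited files give estimated counts and TPM per transcript, with transcript length and effective length. The deposited estimated counts carry no normalization between samples, and the deposited TPM values are scaled by length and to a fixed library sum. Of 146190 transcripts 135007 were matched by identifier to 49166 genes of GENCODE M21, holding 98.8% to 99.1% of counts. That annotation set which transcripts were summed per gene, the gene names and the transcript types. Unmatched transcripts were left out.

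Sums of estimated counts over each gene's transcripts, rounded, went over all 16 libraries into edgeR 4.0.16 (quasi-likelihood, TMM, filterByExpr, R 4.3.3), without the replicate number, over 16971 genes. P-values were adjusted by Benjamini-Hochberg and called under 0.05. CPM uses the same scaling. DESeq2 1.42.0 and limma 3.58.1 were alternatives: DESeq2 without and with the replicate block, limma-voom with it as a random effect. The edgeR fit without the block was run on simulated counts for the comparisons of KO DHT+ENZ. Those counts held no replicate effect, so this does not check the blocked fit. Same-numbered libraries of compared groups correlated at 0.155 to 0.791 after removal of group means (9747 genes), all above the 0.1 set for pairing. Some differently numbered libraries correlated as strongly (KO DMSO replicate 1 with KO DHT replicate 4 at 0.795, beside 0.447 for its own number), and WT DMSO with KO DHT, which were not compared, reached -0.011 for number 1. The labels do not say that numbers pair cultures, so the pairing comes from the data, and the blocked value is printed where it differs in a call. Comparisons with KO DMSO or KO DHT share those libraries.

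The members, lists and tests were chosen with earlier results of these data known. Values in every library are given for members called in either edgeR model, the most abundant member of each of 6 roles, and the smallest p-values up to 4. Genes of other lists are named if called, up to 8 per comparison by smallest p. Myc, Mycn and Chd1 are always named. Of all symbols sought, 3 Pol I symbols were not matched and are not analysed here.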

Additional observations from a re-analysis of the deposited data

Results flagged for a closer look

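Among 140 sets of 4 libraries (35 genes in 4 groups), 3 had 1 library far from the other 3 by Dixon's test at its 95% critical value for 4 samples. Chance flags about 1 in 20 such sets. Ddx21, an RNA helicase of the nucleolus, was highest in WT DMSO replicate 2 at 254 CPM, beside 225 to 230 CPM in the other WT libraries. Rrp12 was highest in KO DMSO replicate 3 at 34.0 CPM, beside 31.2 to 31.4 CPM. Wdr12 was lowest in KO DHT+ENZ replicate 4 at 41.2 CPM, beside 44.9 to 45.6 CPM.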

How the results depend on the processing

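The counts of genes called depended on the model, and the calls among the 35 nucleolar genes depended on the replicate block. For KO DHT+ENZ against KO DHT and against KO DMSO, edgeR called 45 and 43 genes without the block. With the replicate block it called 591 and 499. The counts were 17 and 9 with no filter beyond 1 count, 215 and 187 with DESeq2, 1041 and 819 with DESeq2 and the block, and 407 and 344 with limma-voom and the block. They were 12 and 10 with an offset for effective length, and 614 and 603 with the block and a correction for the trend on transcript length. With only the 2 groups in the model, 0 were called against KO DMSO. Choices added after seeing the data gave 1480 and 1247 with the block and no WT DMSO replicate 1, and 1192 and 622, 112 and 222, or 78 and 152 with the block and pair 1, 2 or 3 left out. For KO DMSO against WT DMSO, 14 genes were called by DESeq2 with the block, 1 with the length offset and 3 with the block and no WT DMSO replicate 1. For KO DHT against KO DMSO, 1 was called by DESeq2 with the block and 1 with the block and no WT DMSO replicate 1.

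Members called in KO DHT+ENZ against KO DHT were 1 with the edgeR block, 2 with the DESeq2 block, 1 with limma-voom, 2 with the block and no WT DMSO replicate 1, and 1 with pair 1 left out. Against KO DMSO they were 1 with the DESeq2 block and 1 with the block and no WT DMSO replicate 1. The replicate block changed no other call of a member. The members' median was 0.024, -0.099 and -0.069 on the TPM scale in the last 3 comparisons, and -0.012 against KO DMSO with the block and pair 4 left out. With 1 library left out, genes called ranged from 2 (without KO DHT+ENZ replicate 2) to 116 (without WT DMSO replicate 1) and from 0 to 98 (without WT DMSO replicate 1) in the same order, the 0 arising without KO DMSO replicate 1, 3 or 4 or KO DHT+ENZ replicate 1, 2 or 4. The members' median ranged from -0.039 to 0.080 and from -0.049 to 0.00027, from -0.074 to 0.025 for KO DMSO against WT DMSO, and from -0.085 to -0.0046 for KO DHT against KO DMSO. No direction of a called value reversed, although the members' medians, which have no test, changed sign in places, and the cause of these shifts was not tested.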
